A study of Mus musculus with 14 samples.

Results

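The enzymes that turn tryptophan into nicotinamide adenine dinucleotide (NAD) were examined in the liver of mice with a K289R substitution in LRH-1. The set was chosen by name and held 10 genes: Tdo2, Ido2, Afmid, Kmo, Kynu, Haao, Acmsd, Qprt, Nadsyn1 and Nampt. A probe set of its own was found for 9 of the 10, among 19237 named genes in all. Afmid shares its probe set with another gene and was not analysed here. The set was put together around Acmsd with the difference between the genotypes already known from these arrays, on log2(intensity + 1). The differences of its members between K289R and WT livers are therefore given as a description, without a p-value.

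The K289R group held 7 mice whose LRH-1 carries arginine in place of a lysine that accepts the small modifier SUMO. The WT group held 7 mice with the unchanged receptor. LRH-1 is the nuclear receptor product of Nr5a2, and its targets in hepatocytes include genes of bile acid and cholesterol metabolism. All mice were 17 to 19 weeks old, ate ad libitum and were killed at 7 am, and each liver was hybridised to 1 Affymetrix whole-transcript array. The labels used here do not state strain, sex, litter, zygosity or how the allele was made.

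In liver, TDO2 opens the indole ring of tryptophan, and AFMID, KMO, KYNU and HAAO carry the product on to an unstable semialdehyde. At that point the route divides. The semialdehyde closes by itself to quinolinate, which QPRT and then NADSYN1 take towards NAD, or it is decarboxylated by ACMSD and burned through the glutarate pathway. ACMSD thus draws material away from NAD synthesis. NAMPT works on a separate route that recovers NAD from nicotinamide.

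Genome-wide, limma called 3678 of 19237 genes (19.1%) at an adjusted p of 0.05, of which 1610 were higher and 2068 lower in K289R livers. The split was 900 higher and 2044 lower when each array was centred on its median. Nr5a2 itself averaged 8.76 ± 0.22 in K289R and 8.77 ± 0.09 in WT livers (log2(intensity + 1), SD, n = 7 each; exact permutation p = 0.981, 2-sided). Of 10 measured hepatocyte markers 2 rose and none fell, against 8.37% and 10.8% of all genes, so the share called was near that of all genes. With quantile normalization 2 rose and 2 fell, against 2072 higher and 2165 lower of 19237 genes in all. With the array sets described next as random blocks 1 rose, and Serpinc1 lost its call (limma's adjusted p = 0.133). Within each genotype, replicates 1 to 4 and replicates 5 to 7 formed sets of arrays in an earlier analysis of these data, and the labels name no such sets. The Nr5a2 difference was 0.12 ± 0.07 within replicates 1 to 4 and -0.17 ± 0.12 within replicates 5 to 7 (log2, SE). Differences are given below for both sets, and calls were repeated with the 4 sets as random blocks. With these blocks 771 of 19237 genes were called higher and 1405 lower.

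All 9 measured members lay above the 95th percentile of 1044 olfactory receptor genes, which stand for unexpressed genes, on each of the 14 arrays. In K289R livers Acmsd, Nampt, Kmo and Kynu were lower and Ido2 was higher past limma's threshold, and the other 4 members did not pass. That is 4 members lower against a background of 10.8% of all genes, and 1 higher against a background of 8.37%. The groups did not overlap for Acmsd and Kynu (lower, background 4.73%) and for Ido2 (higher, background 2.82%), which makes 3 of 9 against 7.54% of all genes. The median difference of the 9 members was -0.15, against 0.05 over all genes. The median absolute difference was 0.23 for the members and 0.12 over all genes.

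**Figure D1:**
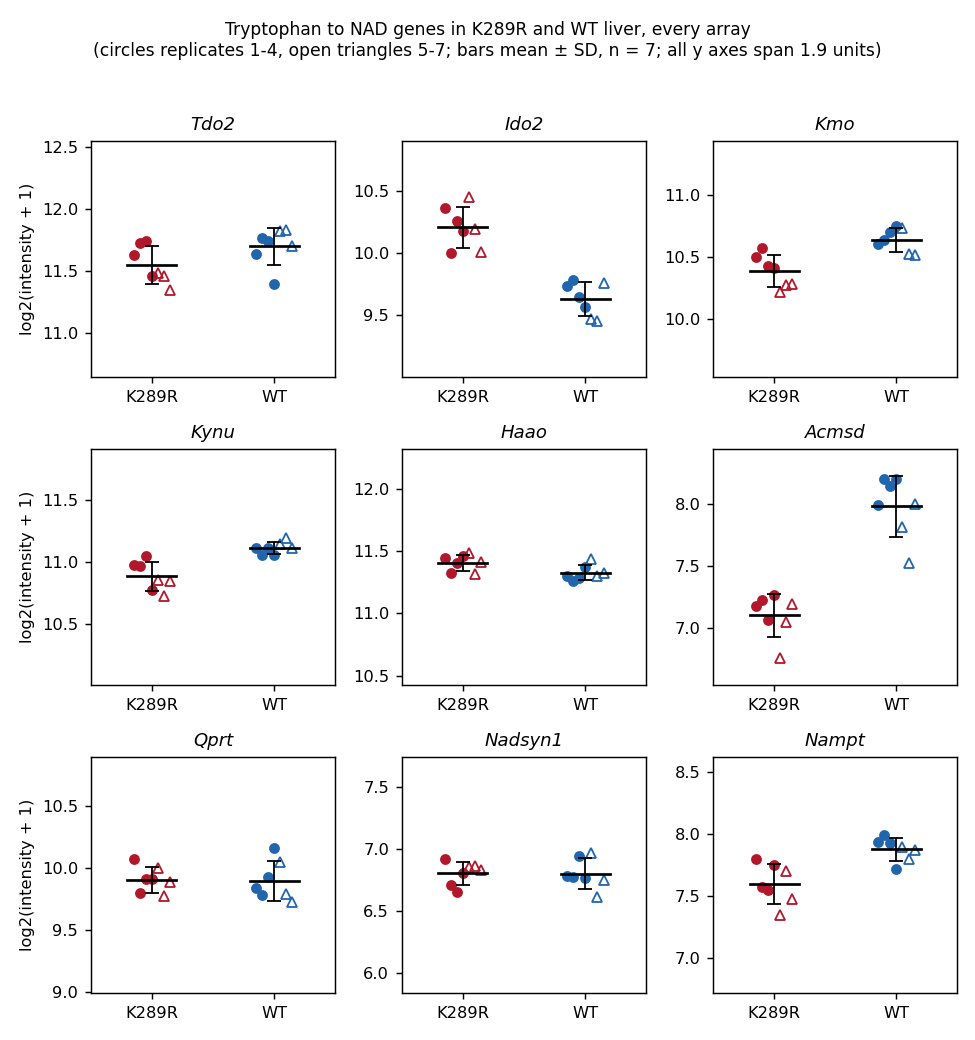
Each panel plots log2(intensity + 1) of 1 gene on every array, K289R left of WT, with circles for replicates 1 to 4 and open triangles for replicates 5 to 7; the bars give the mean ± SD of 7 arrays. All K289R arrays lie below all WT arrays for Acmsd and Kynu and above them for Ido2, while Qprt and Nadsyn1 overlap throughout.

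Acmsd, the branch enzyme, had the largest difference of the members. Its level ran from 6.76 to 7.27 (log2(intensity + 1)) in K289R livers, with a median of 7.18, against 7.52 to 8.20 with a median of 8.0 in WT livers. Every K289R array was thus below every WT array, and the lowest WT array, replicate 6, still exceeded the highest K289R array. The means were 7.11 ± 0.17 in K289R and 7.98 ± 0.25 in WT livers (SD, n = 7 each). The difference was -0.88 ± 0.10 (log2, SE), with a 95% confidence interval of -1.09 to -0.66, so that the K289R level was 0.545 times the WT level. Its absolute difference exceeded that of 99.1% of all genes. In WT livers Acmsd lay at 7.99 to 8.20 on replicates 1 to 4 and at 7.52 to 8.0 on replicates 5 to 7. The difference between the genotypes was -0.95 ± 0.08 within the first of these sets and -0.78 ± 0.15 within the other (SE).

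The enzymes that feed the branch point showed smaller differences. KMO, the outer mitochondrial membrane enzyme that hydroxylates kynurenine, is encoded by Kmo. Kmo ran from 10.22 to 10.57 with a median of 10.41 in K289R livers, against 10.52 to 10.75 with a median of 10.63 in WT livers. On 6 of the 7 K289R arrays it was below every WT array, and replicate 2 overlapped. The difference was -0.25 ± 0.06 (log2, SE), with a 95% confidence interval of -0.38 to -0.12. Kynu, whose product kynureninase makes 3-hydroxyanthranilate, ran from 10.72 to 11.05 with a median of 10.85 in K289R livers, against 11.05 to 11.19 with a median of 11.11 in WT livers. The groups touched without overlapping, and the difference was -0.23 ± 0.05 (log2, SE). The WT arrays were close together for Kynu, with an SD of 0.05, against 0.12 in K289R livers. Haao encodes the dioxygenase that makes the branch point semialdehyde. It lay at 11.32 to 11.49 in K289R and at 11.26 to 11.44 in WT livers, a difference of 0.08 ± 0.05 that did not pass (log2, SE; 95% confidence interval -0.01 to 0.18).

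The enzymes at the entry, TDO2 and IDO2, differed from each other. Ido2, a relative of the interferon-inducible Ido1 that is expressed in liver, ran from 9.998 to 10.45 with a median of 10.19 in K289R livers, against 9.45 to 9.78 with a median of 9.64 in WT livers. Every K289R array exceeded every WT array. The difference was 0.58 ± 0.08 (log2, SE), with a 95% confidence interval of 0.42 to 0.74, a fold of 1.49. Tdo2, the main tryptophan-oxidising enzyme of hepatocytes, ran from 11.34 to 11.74 in K289R livers, with a median of 11.48, and from 11.39 to 11.83 in WT livers, with a median of 11.74. Its groups overlapped, and its difference of -0.15 ± 0.07 (log2, SE) did not pass. Without WT replicate 4, the lowest WT array, Tdo2 passed as lower with a difference of -0.20. Among replicates 1 to 4 the Tdo2 difference was 0.00 ± 0.08, and among replicates 5 to 7 it was -0.36 ± 0.09 (log2, SE).

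Past the branch point, the members on the NAD side, Qprt and Nadsyn1, had near-equal means in both genotypes. Nmnat1, which acts between them and is not a member, was lower in K289R livers and is described below. Qprt, which turns quinolinate into nicotinate mononucleotide, lay at 9.77 to 10.07 in K289R livers and at 9.72 to 10.16 in WT livers. Its difference was 0.01 ± 0.07 (log2, SE), with a 95% confidence interval of -0.14 to 0.16. Nadsyn1, the last enzyme of the synthesis, lay at 6.65 to 6.93 in K289R livers and at 6.61 to 6.97 in WT livers. Its difference was 0.00 ± 0.07 (log2, SE), with a 95% confidence interval of -0.14 to 0.15. The intervals thus leave room for changes of up to about that size in either direction. Nampt, the rate-limiting enzyme of the nicotinamide salvage route, ran from 7.35 to 7.80 with a median of 7.57 in K289R livers, against 7.72 to 7.99 with a median of 7.89 in WT livers. On 5 of 7 K289R arrays it was below every WT array. The difference was -0.28 ± 0.07 (log2, SE), and its call was lost with the 4 sets as random blocks.

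**Figure D2:**
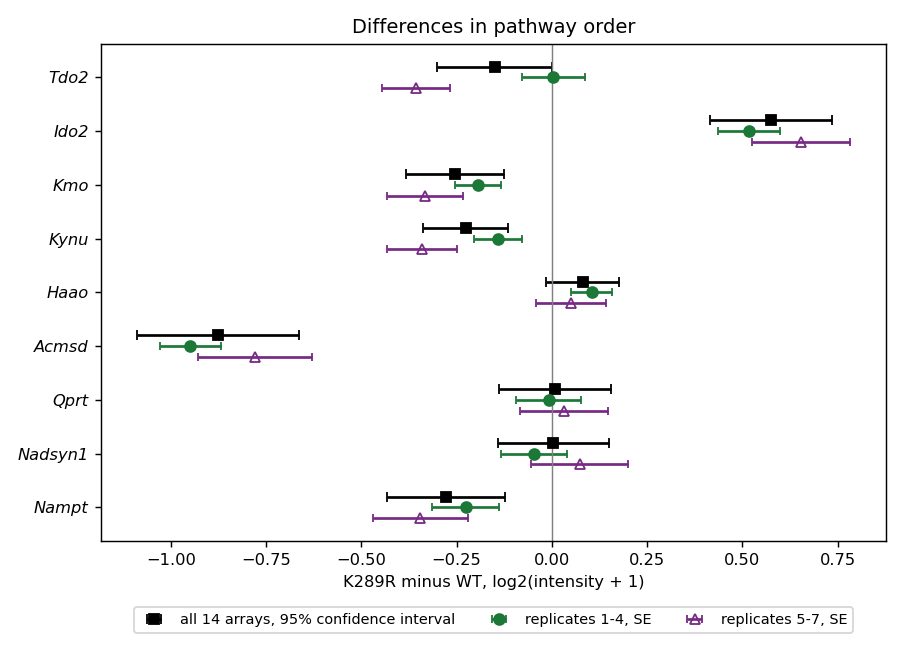
K289R minus WT differences in log2(intensity + 1) are plotted for the 9 genes, Nampt at the bottom and the others in the order of the route, as black squares with 95% confidence intervals for all 14 arrays, and as circles and open triangles with SE for replicates 1 to 4 and 5 to 7. Acmsd lies near -0.88 and Ido2 near 0.58, and Tdo2 is the member whose 2 sets lie farthest apart.

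The genotype difference was also compared between the sets of arrays, a contrast that played no part in choosing the genes. The sets themselves were found in these same data, so the p-values of this interaction are a description. None of the 9 members passed limma's adjusted p of 0.05 for this interaction, against 0.114% of all genes, and 1 member, Tdo2, had an unadjusted p below 0.05. For Tdo2 the interaction was -0.36 ± 0.12 (log2, SE), with limma's adjusted p = 0.47. The calls and signs within each set, in contrast, come from the arrays on which the genes were chosen, so they are a description only. Within replicates 1 to 4 alone, 3 members passed, Acmsd and Kmo lower and Ido2 higher, against 14.1% of all genes. Within replicates 5 to 7 alone, 4 passed, Acmsd, Kynu and Tdo2 lower and Ido2 higher, against 9.16% of all genes. Of the 9 members, 6 had differences of the same sign in both sets, and the exceptions were Tdo2, Qprt and Nadsyn1.

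The promoters of Kmo and Nampt are shown because these members were lower in K289R livers, and that of Haao because it encodes the enzyme before the branch point and did not pass. They run from 250 bases before to 50 bases after the start of the gene and come from RefSeq on GRCm38.p6, and those of 7 of the 10 genes were read. Capitals mark the nuclear receptor core motif AGGTCA or its reverse complement TGACCT.
Kmo promoter, GRCm38.p6 chr1:175631943-175632242, plus strand: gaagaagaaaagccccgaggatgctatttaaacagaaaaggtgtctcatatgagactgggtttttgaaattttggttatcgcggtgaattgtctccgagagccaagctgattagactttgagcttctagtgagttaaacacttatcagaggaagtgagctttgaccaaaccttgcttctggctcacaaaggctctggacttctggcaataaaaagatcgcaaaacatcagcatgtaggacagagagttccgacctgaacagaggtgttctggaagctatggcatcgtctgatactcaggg
Nampt promoter, GRCm38.p6 chr12:32820085-32820384, plus strand: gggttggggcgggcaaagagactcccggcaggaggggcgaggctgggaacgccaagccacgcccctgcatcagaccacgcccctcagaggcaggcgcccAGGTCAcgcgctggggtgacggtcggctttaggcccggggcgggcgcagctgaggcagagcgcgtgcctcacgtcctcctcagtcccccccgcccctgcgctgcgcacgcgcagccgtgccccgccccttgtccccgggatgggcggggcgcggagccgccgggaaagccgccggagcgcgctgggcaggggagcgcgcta
Haao promoter, GRCm38.p6 chr17:83846741-83847040, minus strand: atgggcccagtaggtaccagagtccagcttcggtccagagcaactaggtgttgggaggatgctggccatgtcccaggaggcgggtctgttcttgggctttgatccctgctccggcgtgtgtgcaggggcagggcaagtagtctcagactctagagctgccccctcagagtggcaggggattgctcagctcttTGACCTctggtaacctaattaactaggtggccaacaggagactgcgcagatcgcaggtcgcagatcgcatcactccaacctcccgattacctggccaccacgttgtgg
The core motif was found in the promoters of Nampt, Haao and Tdo2, and in 16.3% of 32851 mouse promoters of the same length. The longer LRH-1 motif CAAGGNCA, which with T at its open base contains the core motif, was found in none of the 7 promoters on either strand, and in 6.71% of all promoters. The same held for the HNF4A motif CAAAGTCCA, in 0.475% of all promoters, and for the E-box CACGTG, in 7.15%. The core motif was added after the promoters had been read. These matches describe letters within 300 bases only.

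Acmsd lies on chromosome 1, as does Nr5a2, with 114 measured genes between them. Of the 221 measured genes within 20 Mb of Nr5a2, 23 were higher and 29 lower past limma's threshold, or 23.5%, against 19.1% of all genes. Acmsd was the 1 gene among them that fell by as much as it did. The 3 measured genes on each side of Acmsd, Nckap5, Mgat5, Tmem163, Ccnt2, Map3k19 and Rab3gap1, had differences of -0.21 to 0.19 (log2). None of these 6 passed limma's adjusted p of 0.05, and 0 had an unadjusted p below 0.05. Map3k19 lay above the 95th percentile of the olfactory receptor genes on 0 of the 14 arrays and Nckap5 on 10, which limits what they can show. Ccnt2 differed by -0.21 ± 0.10 over all arrays, by -0.09 ± 0.10 within replicates 1 to 4 and by -0.37 ± 0.13 within replicates 5 to 7 (log2, SE). Kmo is also on chromosome 1, outside that window. An effect of the substitution and one of the chromosome segment inherited with it cannot be told apart in this design.

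**Figure D3:**
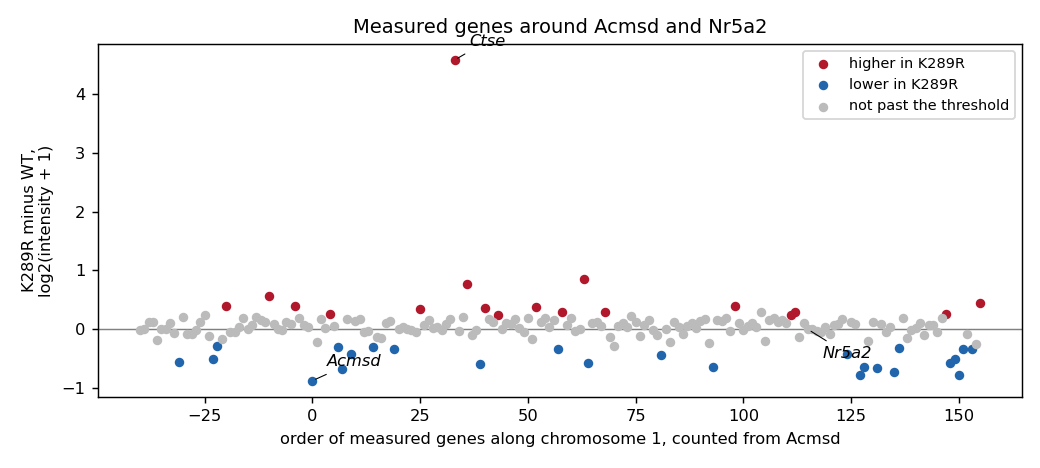
K289R minus WT differences in log2(intensity + 1) are plotted against the order of measured genes along chromosome 1, counted from Acmsd, with colours for limma's calls. Acmsd, at -0.88, is the lowest point of the stretch, Nr5a2 lies near 0 and Ctse, at 4.58, is the highest.

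The genes whose levels over the 14 arrays were most like Acmsd were taken from 8482 other genes with a mean of at least 6 log2 units. Cyp2c70, which makes muricholic acids in mouse bile acid synthesis, came first with a Pearson correlation of 0.97. The vesicle tethering gene Trappc1 (0.96), the actin nucleation gene Arpc5 (0.95), the ribosomal protein relative Rpl7l1 (0.95) and the nucleolar gene Nop56 (0.95) followed. Cyp2c70 averaged 10.98 in K289R and 11.83 in WT livers, a difference of -0.85 ± 0.09 (log2, SE). With each array taken as its deviation from the mean of its genotype, the correlation of Acmsd with Cyp2c70 was 0.83. Running opposite to Acmsd were Fam89a (-0.96), the fatty acid desaturase gene Fads1 (-0.93) and the splicing factor gene Prpf19 (-0.92). Among the members, Kmo had the highest correlation with Acmsd, 0.84, and Ido2 the lowest, -0.81. With the genotype means removed in the same way, the correlation with Acmsd was 0.54 for Kmo and 0.026 for Ido2. These correlations describe 14 arrays that share the genotype difference and the array sets, so they carry no p-value.

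The glutarate branch takes up what ACMSD releases, and 7 of its 9 measured genes passed limma's threshold, 5 lower and 2 higher in K289R livers. Of all genes 19.1% passed, 10.8% lower and 8.37% higher. The median difference of the 9 genes was -0.25, against 0.05 over all genes. Acat1, which encodes the mitochondrial thiolase at the end of the branch, fell most. It ran from 9.38 to 10.13 with a median of 9.92 in K289R livers, against 10.60 to 10.91 with a median of 10.76 in WT livers, without overlap. Its difference was -0.91 ± 0.09 (log2, SE; limma's adjusted p = 6.54e-07). This list and those below were also chosen with earlier results of these data known. Most genes were named from them by the size of their differences. The adjusted p-values given for them are therefore a description and no independent test. Dld (-0.32 ± 0.10), Dhtkd1 (-0.29 ± 0.08), Ehhadh (-0.27 ± 0.09) and Hadh (-0.25 ± 0.05) also fell, while Gcdh (0.19 ± 0.06) and Echs1 (0.18 ± 0.06) rose. Several of these enzymes also serve fatty acid, ketone body or lysine breakdown. Aldh8a1, whose product acts directly after ACMSD, differed by -0.19 ± 0.08 and did not pass (limma's adjusted p = 0.114). With the 4 sets as random blocks 2 of the 9 genes were lower and none higher, against 1405 lower and 771 higher of 19237 genes in all. The Ehhadh difference was -0.02 within the first set of replicates and -0.60 within the other.

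**Figure D4:**
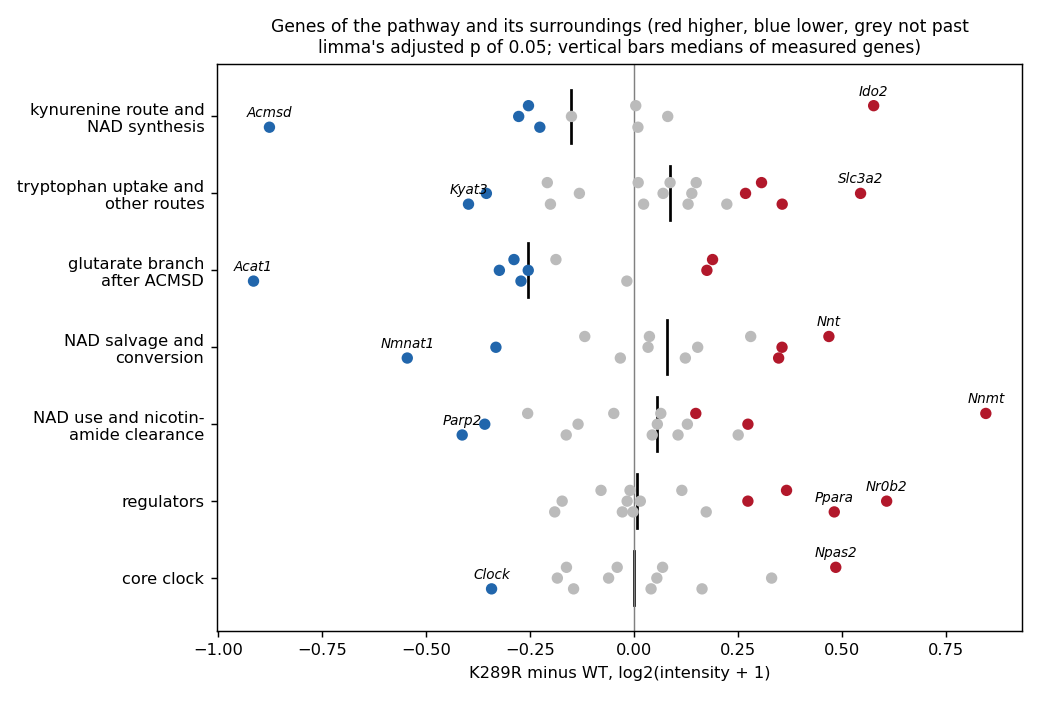
Each point is 1 measured gene, placed by its K289R minus WT difference in log2(intensity + 1) and grouped by role, red where higher, blue where lower and grey where not past limma's adjusted p of 0.05, with vertical bars at the medians. Acat1 and Acmsd lie farthest to the left and Nnmt, at 0.85, farthest to the right.

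Of 12 measured genes of NAD salvage and conversion, 3 rose and 2 fell in K289R livers, against 8.37% and 10.8% of all genes. Nmnat1, the nuclear enzyme that joins nicotinamide or nicotinate mononucleotide to ATP, ran from 7.22 to 7.53 with a median of 7.40 in K289R livers, against 7.80 to 8.05 with a median of 7.87 in WT livers. The groups did not overlap, and the difference was -0.54 ± 0.07 (log2, SE; limma's adjusted p = 6.81e-06). The riboside kinase gene Nmrk1 also fell (-0.33 ± 0.08). The mitochondrial NAD carrier gene Slc25a51 (0.36 ± 0.10) and the purine nucleoside phosphorylase gene Pnp (0.35 ± 0.08) rose. Naprt, which starts the route from nicotinic acid, differed by 0.15 ± 0.09 and did not pass (limma's adjusted p = 0.247). The third riser, Nnt, encodes the mitochondrial transhydrogenase that exchanges hydride between NADH and NADP, and C57BL/6J mice carry a deletion in this gene. Nnt differed by 0.47 ± 0.13 (log2, SE; limma's adjusted p = 0.0156). It lay at 8.54 to 8.59 on K289R replicates 1 to 4 and at 8.03 to 8.42 on K289R replicates 5 to 7, against 7.64 to 7.78 on WT replicates 1 to 4 and 8.09 to 8.47 on WT replicates 5 to 7. Its difference was thus 0.88 in the first set and -0.08 in the other, and Nnt passed the interaction with limma's adjusted p = 0.00677. Because the sets were found in these same data, that value is no independent test of them. With random blocks 1 gene of the 12 was higher and 2 were lower, against 771 higher and 1405 lower of 19237 genes in all. Nnt lost its call (limma's adjusted p = 0.0527).

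Among 15 measured genes of NAD use and nicotinamide clearance, 3 rose and 2 fell, against 8.37% and 10.8% of all genes. Nnmt, which methylates nicotinamide and so removes it from salvage, rose most. It ran from 10.10 to 11.18 with a median of 10.37 in K289R livers, against 9.39 to 9.74 with a median of 9.62 in WT livers. Every K289R array exceeded every WT array, and the difference was 0.85 ± 0.12 (log2, SE; limma's adjusted p = 4.61e-05), a fold of 1.80. K289R replicate 2 was the highest array, and the difference was 0.72 without it. The sirtuin genes Sirt7 (0.27 ± 0.07) and Sirt2 (0.15 ± 0.05) rose as well. The poly(ADP-ribose) polymerase gene Parp2 fell by 0.41 (SE 0.07), and the aldehyde oxidase gene Aox1, whose product oxidises methylated nicotinamide, fell by 0.36 (SE 0.10). Aox1 averaged 8.56 in K289R and 8.92 in WT livers. Aox3, another aldehyde oxidase gene, was brighter, with 11.07 in K289R and 11.01 in WT livers. Its difference of 0.06 ± 0.10 did not pass. Sirt1 differed by 0.04 ± 0.11 and Parp1 by -0.13 ± 0.06, and neither passed. With random blocks 1 gene was higher and 1 lower, against 771 higher and 1405 lower of 19237 genes in all. These were Nnmt and Parp2, whereas Aox1 and Sirt7 lost their calls (limma's adjusted p = 0.0758 and 0.0633).

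**Figure D5:**
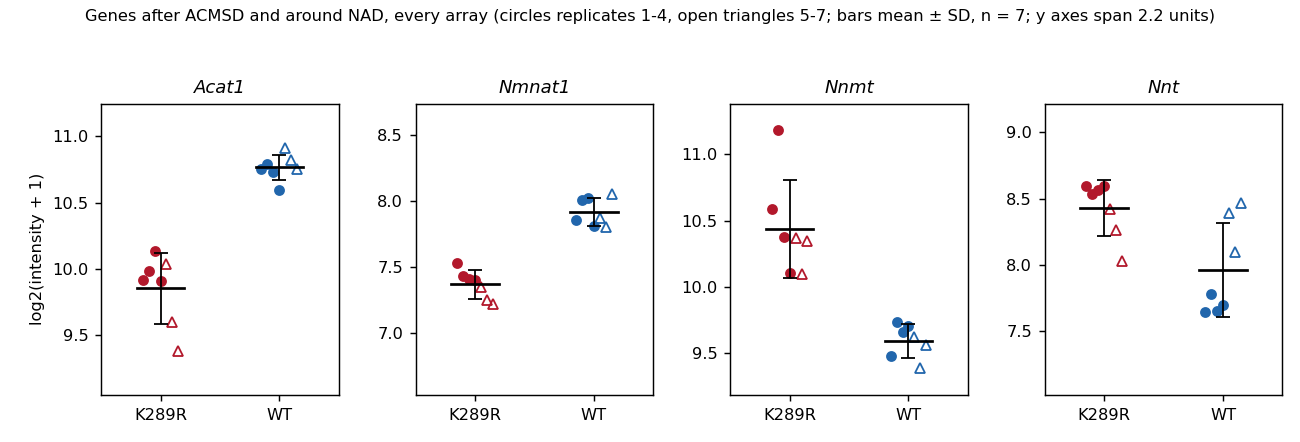
Log2(intensity + 1) on every array is plotted for Acat1, Nmnat1, Nnmt and Nnt, K289R left of WT, with circles for replicates 1 to 4, open triangles for replicates 5 to 7 and bars for the mean ± SD of 7 arrays. The genotypes are apart for Acat1, Nmnat1 and Nnmt, and for Nnt the WT replicates 5 to 7 lie among the K289R arrays.

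Of 17 measured genes of tryptophan uptake and of its other routes, 4 rose and 2 fell in K289R livers. The shares over all genes were 8.37% higher and 10.8% lower. Slc3a2, the heavy chain that carries several amino acid exchangers to the membrane, rose by 0.54 ± 0.06 (log2, SE; limma's adjusted p = 4.14e-06), with 9.84 to 10.26 in K289R and 9.38 to 9.68 in WT livers. The groups did not overlap. Its partner Slc7a5, which imports tryptophan and other large neutral amino acids, rose by 0.36 ± 0.09, and Slc7a8 by 0.31 ± 0.10. Of the transaminases that turn kynurenine into kynurenate, Kyat3 (-0.40 ± 0.10) and Aadat (-0.35 ± 0.11) fell and Kyat1 (0.27 ± 0.08) rose. Ido1, whose product can catalyse the same entry step as TDO2, and the serotonin route genes Tph1 and Tph2 were below the 95th percentile of the olfactory receptor genes on all 14 arrays, and none passed. With random blocks 2 of the 17 genes were higher and 1 lower, against 771 higher and 1405 lower of 19237 genes in all. Aadat lost its call (limma's adjusted p = 0.101).

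Of 14 measured regulators that have been linked to these enzymes, 4 rose and none fell, against 8.37% and 10.8% of all genes. Ppara, the fatty acid receptor that acts on Acmsd expression in rodent liver, rose by 0.48 ± 0.07 (log2, SE; limma's adjusted p = 5.04e-05), with 9.85 to 10.36 in K289R and 9.45 to 9.67 in WT livers. Nr0b2, which encodes the corepressor SHP, rose by 0.61 ± 0.16, Ppard by 0.37 ± 0.10 and Rxra by 0.27 ± 0.08. With random blocks Ppara alone of the 14 passed, against 771 higher and 1405 lower of 19237 genes in all. Hnf4a, a hepatocyte factor, differed by -0.03 ± 0.09 (limma's adjusted p = 0.858), and Nr3c1, the glucocorticoid receptor gene, by -0.02 ± 0.07 (limma's adjusted p = 0.894). Nampt is a known clock output, and of 12 measured core clock genes 1 rose and 1 fell, near the shares over all genes. Npas2 rose by 0.48 ± 0.11 and Clock fell by 0.34 (SE 0.06), while Arntl, the partner of both, differed by 0.07 ± 0.07 and did not pass.

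Kmo, Kynu and Nampt are also expressed in macrophages. Of 14 measured Kupffer cell and macrophage markers, 4 fell and 1 rose in K289R livers, against 10.8% and 8.37% of all genes. Vsig4 fell by 0.75 (SE 0.12), C1qc by 0.52 (SE 0.11), Folr2 by 0.46 (SE 0.10) and Adgre1 by 0.42 (SE 0.13), whereas C1qa rose by 0.30 ± 0.10. With the 4 sets as random blocks Vsig4, C1qc and Folr2 kept their calls, and Adgre1 (limma's adjusted p = 0.125) and C1qa lost theirs. That leaves 3 of the 14 lower and 0 higher, against 1405 lower and 771 higher of 19237 genes in all. C1qa also lost its call with median centring, and Adgre1 in 8 of the 14 fits that left out 1 array. The defining marker Clec4f differed by -0.02 ± 0.09 and did not pass. The summed intensity of the 14 markers ranged from 2030 to 3588 in K289R and from 2871 to 3385 in WT livers, and no marker was at 0. The median difference of the 14 markers was -0.07, so they did not fall together. For the markers that fell, fewer cells and less RNA per cell cannot be told apart in whole liver. The part of macrophages in the differences of Kmo, Kynu and Nampt was not tested.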

How the data were processed

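Liver RNA of 7 K289R and 7 WT mice had been hybridised to 14 Affymetrix arrays, 1 per sample, after amplification of 100 ng of total RNA, per the labels' protocols. The deposited values are linear probe set intensities that the authors summarised; the submitters' processing notes name Affymetrix Expression Console. No version, background correction or genome build is stated in the labels, and whether the arrays were scaled to each other is unknown. Arrays have no read depth, and their number limits the precision.

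Of 35556 probe sets, 21456 had 1 gene symbol in the platform annotation, 2376 had several and were left out, and 11724 were unnamed. Symbols were updated by Entrez identifier (21277 matched). The probe set with the highest mean stood for each of 19237 genes. Values were taken as log2(intensity + 1), which understates the change of dim genes. Near-identical gene copies can share probes. No filter was applied.

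The fit across all genes used limma 3.58.1 under R 4.3.3 (genotype alone, intensity trend, 2-sided, Benjamini-Hochberg over all genes, threshold 0.05). The code of the fit was also run on simulated data with independent noise for each gene and array. That run held no array sets, so it does not bear on how the sets affect the calls. Nr5a2 was tested by exact permutation over 3432 assignments. Replicates are labelled as biological.

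The members and lists, and the sets of arrays, were chosen with earlier results of these data known. The text names all members, Nr5a2, up to 4 called genes per list with the largest differences (or the 2 with the smallest p), the 5 genes most and 3 least like Acmsd, and 3 measured genes on either side of it. Aldh8a1, Ctse, Hadh, Gcdh, Echs1, Nmrk1, Naprt, Aox3, Sirt1, Sirt2, Parp1, Slc7a8, Kyat1, Ido1, Tph1, Tph2, Hnf4a, Nr3c1, Arntl, C1qa and Clec4f were named after their values were seen. Other marker lists were counted, beside 8.37% of all genes higher and 10.8% lower. Of sinusoidal endothelial markers 3 of 12 rose and 1 fell, and of stellate cell markers 2 of 12 rose and 1 fell. Of lymphocyte markers 1 of 10 rose and of neutrophil markers 1 of 8 rose. With the array sets as random blocks the endothelial markers had 2 higher and 1 lower, the stellate cell markers 0 higher and 1 lower, the lymphocyte markers 1 higher and the neutrophil markers 0 higher, and the lost calls were those of Tek, Reln, Des and Mpo (limma's adjusted p = 0.155, 0.148, 0.0538 and 0.161). Over all 19237 genes, random blocks called 771 higher and 1405 lower. No cholangiocyte marker (7 measured) and no kidney tubule marker (7 measured) passed limma's threshold, with 1 cholangiocyte and 0 kidney tubule markers at an unadjusted p below 0.05. Few of these markers lay above the 95th percentile of the olfactory receptor genes on all 14 arrays. They were 2 of 7 cholangiocyte, 2 of 7 kidney tubule, 3 of 10 lymphocyte and 0 of 8 neutrophil markers. The counts of these 4 lists therefore say little about those cells.

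Same-numbered replicates were checked for pairing through the correlation of their deviations from the group means. It ran from -0.30 to 0.56, and 2 of 7 K289R arrays matched their own number best, so the numbers do not pair the samples. The promoter of Acmsd is not reported here.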

Additional observations from a re-analysis of the deposited data

Results flagged for a closer look

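The 65 genes picked by the naming rules gave 130 groups of 7 arrays, K289R or WT. Genes named after their values were seen, and other genes counted in the lists, were not checked in this way. Of the 130 groups, 5 had an array far from the others by Dixon's test at the 95% level. None of the 5 was of a gene of the tryptophan to NAD set. Chance flags about 1 in 20 such groups. Parp2 lay at 5.50 (log2(intensity + 1)) in K289R replicate 6, against 5.76 to 5.84 on the other K289R arrays, and at 6.36 in WT replicate 4, against 6.05 to 6.18 on the other WT arrays. Nop56 lay at 6.70 in K289R replicate 5, against 7.11 to 7.41 on the other K289R arrays, and at 7.55 in WT replicate 6, against 7.79 to 7.92 on the other WT arrays. Npas2 lay at 7.30 in WT replicate 4, against 7.72 to 8.02 on the other WT arrays. Leaving out any of these arrays kept the calls of the 3 genes.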

How the results depend on the processing

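The calls of Acmsd and Ido2 were kept under each alternative run, and those of Kmo, Kynu and Nampt in all 14 fits that left out 1 array. Without 1 array the count of genes called ran from 3082 to 3857, of members lower from 4 to 5 and of members higher it stayed at 1. The count of genes called was 1762 with replicates 5 to 7 only, which uses fewer samples, 2232 at the stricter threshold of 0.01, and 2176 with the 4 array sets as random blocks. With replicates 1 to 4 only, 2 members were lower, Acmsd and Kmo. Nnt turned to -0.082 with replicates 5 to 7 only. Nampt lost its call with random blocks, within either set and at the stricter threshold. Median centring called 900 genes higher and 2044 lower, and quantile normalization 2072 higher and 2165 lower. The replicate numbers share only a number: with the replicate block 3838 genes were called, 1 member higher and 4 lower, and Nr5a2 differed by 0.00. The cause of the other changes was not tested. Array brightness limits genes near the level of unexpressed genes, among them Ido1, Tph1, Tph2 and Map3k19. It also limits the counts of lymphocyte, neutrophil, cholangiocyte and kidney tubule markers.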
